A study of Arabidopsis thaliana with 6 samples.

Results

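The 7 chloroplast mRNAs described here come from neighbouring gene clusters on opposite strands, and were chosen by gene name. *psbE* and *psbJ* belong to an operon on the minus strand, and *petL*, *petG*, *psaJ*, *rpl33* and *rps18* follow each other on the plus strand. They are 7 of the 73 chloroplast mRNAs that were measured. The libraries were 3 CP31A pellets and 3 inputs, each pair from a biological replicate of wild-type *Arabidopsis thaliana* Columbia-0 seedlings, 14 days old and grown in long days at 21 °C. DO-RIP-Seq is a sequencing of RNA that co-precipitates with a protein after a controlled digestion. Ground seedlings are cross-linked with formaldehyde, the RNA is trimmed with RNase I, and what an antibody against CP31A pulls down forms the pellet. The input was drawn from the mix of extract and antibody-coated beads that also gave the pellet, so neither a mutant nor a mock precipitate enters the comparison. Precipitates with non-specific immunoglobulins were not analysed here.

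CP31A is a nuclear-encoded chloroplast ribonucleoprotein with a pair of RNA recognition motifs, and it is known for a role in RNA editing and in the stability of many chloroplast mRNAs. Chloroplast genes are mostly transcribed as polycistronic RNAs that are then cut into shorter transcripts, so that neighbouring mRNAs can share a precursor and still accumulate to different levels. *psbE* encodes the alpha subunit of the cytochrome *b* of photosystem II and *psbJ* a small membrane subunit of the same complex. *petL* and *petG* encode small membrane subunits of the cytochrome *b6f* complex, *psaJ* a small subunit of photosystem I, and *rpl33* and *rps18* proteins of the large and the small ribosomal subunit.

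On the chloroplast sequence of TAIR10.1 (Pltd, RefSeq), *psbJ* lies at 63538 to 63660 and *psbE* at 64071 to 64322 on the minus strand, with *psbL* and *psbF*, which were not analysed here, annotated between them. On the plus strand, *petL* lies at 65712 to 65807, *petG* at 65998 to 66111, *psaJ* at 66929 to 67063, *rpl33* at 67488 to 67688 and *rps18* at 67917 to 68222. The strands in the annotation are thus those of the gene clusters as named, and 1389 nt separate *psbE* from *petL*. The beginnings of the coding sequences are shown because they fix which mRNAs and which strand the reads were counted for. Each gives the first 30 bases 5′ to 3′ on the coding strand, with the annotated start codon in capitals.
psbE (Pltd:64293-64322, minus strand): ATGtctggaagcacaggagaacgttctttt
psbJ (Pltd:63631-63660, minus strand): ATGgctgatactactggaaggattcctctt
petL (Pltd:65712-65741, plus strand): ATGcctactataactagttatttcggtttt
petG (Pltd:65998-66027, plus strand): ATGattgaagtttttttatttggaatcgtc
psaJ (Pltd:66929-66958, plus strand): ATGcgagatctaaaaacatatctttccgta
rpl33 (Pltd:67488-67517, plus strand): ATGgccaagggtaaagatgttcgagtaaca
rps18 (Pltd:67917-67946, plus strand): ATGaataaatctaagcgactttttactaaa
All 7 annotated reading frames open with ATG. The codon after the start of *petL* is a known site of C-to-U RNA editing in this plant, and editing was not measured here.

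Reads were counted over each gene with 100 nt on each side, and some of these windows meet those of neighbours on the same strand. Of the 452 nt counted for *psbE*, 191 nt (42.3%) also lie in the windows of *psbF* or *psbL*, and of the 323 nt for *psbJ*, 57 nt (17.6%) lie in that of *psbL*. The windows of *petL* and *petG* share 10 nt, and those of *psaJ*, *rpl33* and *rps18* overlap no other. None of the 7 windows overlapped the window of a protein-coding gene on the opposite strand. The base composition of the windows differed between the clusters. GC was 40.9% for *psbE* and 39.3% for *psbJ*, against 26.7% to 33.4% on the plus strand, with a median of 33.9% over the 73 RNAs. The window of *petL* had 40.5% U and that of *petG* 38.5%, near the upper end of the range of 23.5% to 40.8% over all RNAs, while the others of the 7 had 32.2% to 35.3%.

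The values are TPM, that is, reads per length of the window, scaled to the same total in each library, and a level is therefore a share of the counted chloroplast mRNA. In whole seedlings, fewer cells that hold an RNA and less RNA per cell cannot be told apart. Whole reads were recovered from TPM and window length for 456 of 462 values, and they numbered 251570 to 392286 per pellet and 24224 to 73526 per input. The inputs were thus the shallower libraries, and the reads had PCR duplicates removed by molecular identifiers. The SD of log2 TPM over 3 replicates had a median of 0.09 in the pellets and 0.41 in the inputs over all RNAs. Together the 7 mRNAs held 8.06%, 8.21% and 8.42% of the TPM in pellets 1, 2 and 3, against 8.66%, 5.87% and 6.01% in inputs 1, 2 and 3.

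The level of the 7 mRNAs covered a wide range in either fraction. In the pellets the order of mean TPM was *psbJ*, *psaJ*, *psbE*, *petG*, *petL*, *rps18* and *rpl33*, and the libraries of neighbours in that order overlapped only for *rps18* (1843 to 2358) and *rpl33* (1744 to 1882). In the inputs the order was *psbJ*, *psaJ*, *psbE*, *petG*, *rps18*, *petL* and *rpl33*. There the ranges of *psaJ* (9281 to 19169) and *psbE* (8906 to 11511) overlapped, as did those of *petG* (2900 to 4925) and *rps18* (1928 to 3694), and those of *rps18*, *petL* (1133 to 2177) and *rpl33* (1390 to 1793). *psbJ* had rank 3 of 73 in the pellets and rank 4 in the inputs, while *rpl33* had ranks 56 and 50.

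**Figure D1:**
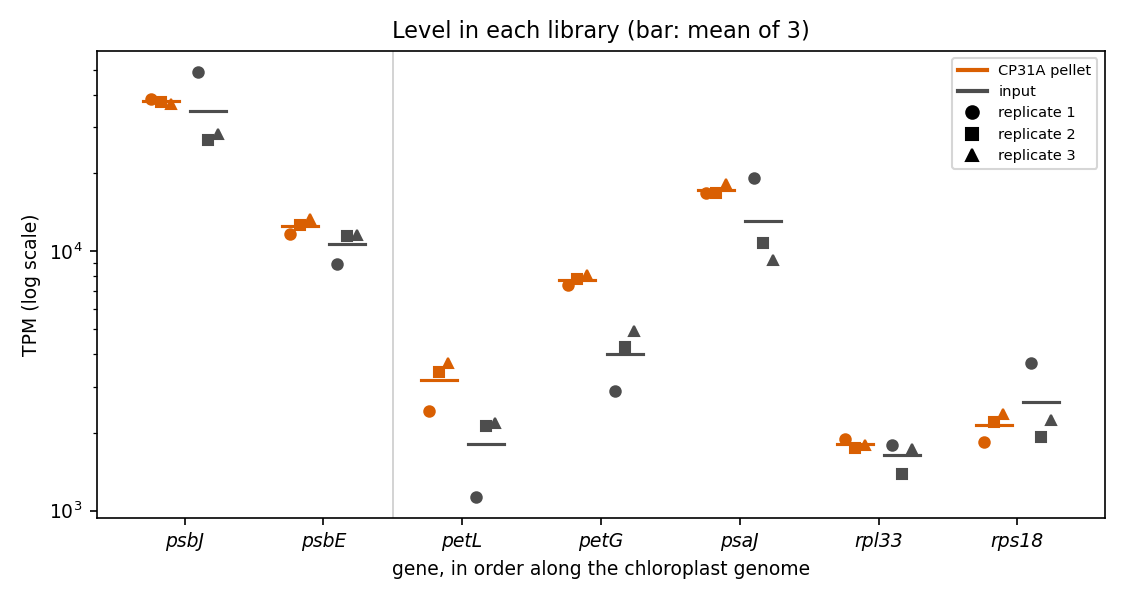
TPM (log scale) of the 7 mRNAs in gene order, with the CP31A pellets (orange, left) and the inputs (grey, right) of each gene. Symbols are the 3 replicates and bars their means. The pellets of *psbE*, *petL* and *petG* lie above all their inputs. Input 1 (circle) is the highest input for *psbJ*, *psaJ*, *rpl33* and *rps18* and the lowest for *psbE*, *petL* and *petG*.

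Of the 7 mRNAs, *petG* and *petL* were enriched in the CP31A pellets and 5 were not called (adjusted p under 0.05 in a two-sided limma fit of log2 TPM that pairs pellet and input by replicate, with Benjamini-Hochberg adjustment over 73 RNAs). Over all RNAs 50.7% were called, of which most were enriched (49.3% of all RNAs) and 1.37% depleted. Enrichment of at least 2-fold, reached by 34.2% of all RNAs, was reached by none of the 7. The median log2 enrichment of the 7 was 0.25, beside 0.71 over all 73 RNAs, and 2 of the 7, *petG* at rank 26 and *petL* at rank 31, lay above that overall median. All pellets lay above all inputs for 3 of the 7 mRNAs (*psbE*, *petL* and *petG*), against 63.0% of all RNAs, and all pellets below all inputs for none of them, against 4.11%. All pairs were above 0 for 4 of the 7 (these 3 and *rpl33*), against 67.1% of all RNAs.

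**Figure D2:**
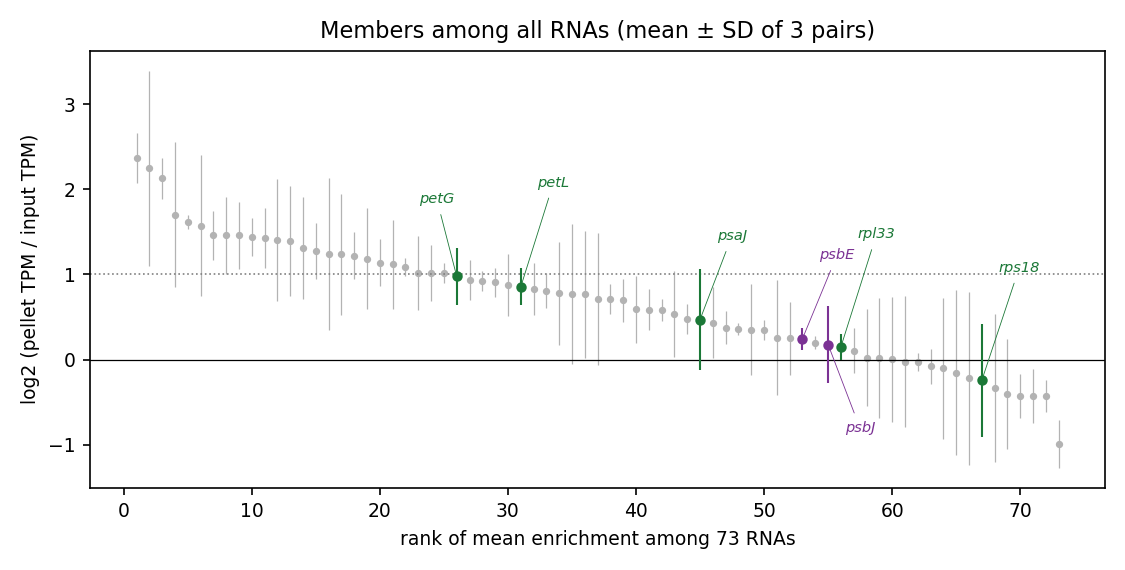
Mean log2 of pellet TPM over input TPM for 73 RNAs, ranked, with the SD over 3 pairs as bars. Purple marks *psbE* and *psbJ*, green the 5 genes of the plus strand, grey all other RNAs, and the dotted line 2-fold enrichment. The 7 mRNAs stand between rank 26 (*petG*, 0.98) and rank 67 (*rps18*, -0.24).

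*petG* encodes a subunit that the cytochrome *b6f* complex needs for its assembly in tobacco. It had 7423, 7793 and 8061 TPM in pellets 1, 2 and 3, against 2900, 4271 and 4925 TPM in inputs 1, 2 and 3. Every pellet was above every input, and input 1 was the lowest library. The log2 enrichment was 0.98 ± 0.34 (SD, n = 3 pairs), or 1.97-fold, with an adjusted p = 0.00762 from limma. Input 1 rests on 19 reads, for which an exact Poisson interval (95%, counting error only) runs from 1746 to 4528 TPM. Without replicate 3 the value was 1.11 and missed the threshold (adjusted p = 0.0509 from limma). The methods' t-test, one-sided and paired, also left it short of the threshold after Benjamini-Hochberg adjustment over 73 RNAs (adjusted p = 0.0567).

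*petL*, for a subunit of the same complex that is dispensable for its activity in tobacco but adds to its stability, had the fewest reads of the 7 in input 1. It had 2430, 3411 and 3719 TPM in the pellets, against 1133, 2118 and 2177 TPM in the inputs. Pellet 1 and input 1 were the lowest library of their fraction, and the groups did not overlap. The log2 enrichment was 0.85 ± 0.22 (SD, n = 3 pairs), or 1.81-fold, with an adjusted p = 0.0114 from limma. Reads numbered 162, 309 and 394 in pellets 1, 2 and 3 and 7, 36 and 40 in inputs 1, 2 and 3, so that counting alone gave the mean enrichment a standard error of 0.22. With 7 reads, input 1 is known only to between 456 and 2335 TPM (exact Poisson, 95%), a range that holds both other inputs. *petL* did not pass without replicate 2 (0.94, adjusted p = 0.0620 from limma) or without replicate 3 (0.89, adjusted p = 0.110 from limma). It passed without replicate 1 (0.73, adjusted p = 1.99e-06 from limma) and by the methods' t-test after adjustment (adjusted p = 0.0405). As for *petG*, the outcomes with a replicate left out rest on a common standard error and do not measure the spread of *petL* between its pairs.

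*psaJ* had 16752, 16707 and 18081 TPM in the pellets, against 19169, 10710 and 9281 TPM in the inputs. The pellets lay close together, whereas input 1 was above every pellet and inputs 2 and 3 below every pellet. Its log2 enrichment was thus -0.19, 0.64 and 0.96 in pairs 1, 2 and 3, with a mean of 0.47 ± 0.60 (SD, n = 3 pairs) that did not pass (adjusted p = 0.178 from limma, 95% interval -0.15 to 1.09). Without replicate 1 it was 0.80 and passed (adjusted p = 2.67e-07 from limma), where 62 of 73 RNAs were called, 58 of them enriched. With replicate 1 left out, every RNA had the same standard error, 0.14, so that such a call does not measure the spread of this RNA between the remaining pairs.

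*rpl33*, whose product is a ribosomal protein that tobacco needs in the cold, had 1882, 1744 and 1791 TPM in the pellets, against 1793, 1390 and 1727 TPM in the inputs. The fractions overlapped, and all 6 libraries lay close together. The log2 enrichment of 0.15 ± 0.15 (SD, n = 3 pairs) did not pass (adjusted p = 0.597 from limma), with a 95% interval from -0.35 to 0.65. Reads in the inputs numbered 15, 32 and 43.

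*rps18*, for an essential protein of the small ribosomal subunit in tobacco, was the only member with a mean below 0. It had 1843, 2195 and 2358 TPM in the pellets, against 3694, 1928 and 2229 TPM in the inputs. Input 1 exceeded all other libraries, and the rest overlapped. The log2 enrichment was -1.003, 0.19 and 0.08 in pairs 1, 2 and 3, with a mean of -0.24 ± 0.66 (SD, n = 3 pairs) that did not pass (adjusted p = 0.494 from limma, 95% interval -0.89 to 0.40). Without replicate 1 the direction turned, to 0.13, and the test was not passed either.

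The mRNAs of the minus strand were not called on TPM. *psbE* had 11659, 12584 and 13289 TPM in the pellets, against 8906, 11406 and 11511 TPM in the inputs. Every pellet was above every input, by a margin that is small next to that of *petG*. The log2 enrichment of 0.25 ± 0.13 (SD, n = 3 pairs) had the smallest SD of the 7 but was not called (adjusted p = 0.381 from limma, 95% interval -0.25 to 0.75). *psbJ* had 38610, 37659 and 36899 TPM in the pellets, against 48961, 26853 and 28278 TPM in the inputs. As for *psaJ*, all pellets lay between input 1 and the other inputs. Its log2 enrichment was -0.34, 0.49 and 0.38 in pairs 1, 2 and 3, with a mean of 0.18 ± 0.45 (SD, n = 3 pairs) that did not pass (adjusted p = 0.589 from limma), and 0.44 without replicate 1, which passed (adjusted p = 0.00311 from limma).

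**Figure D3:**
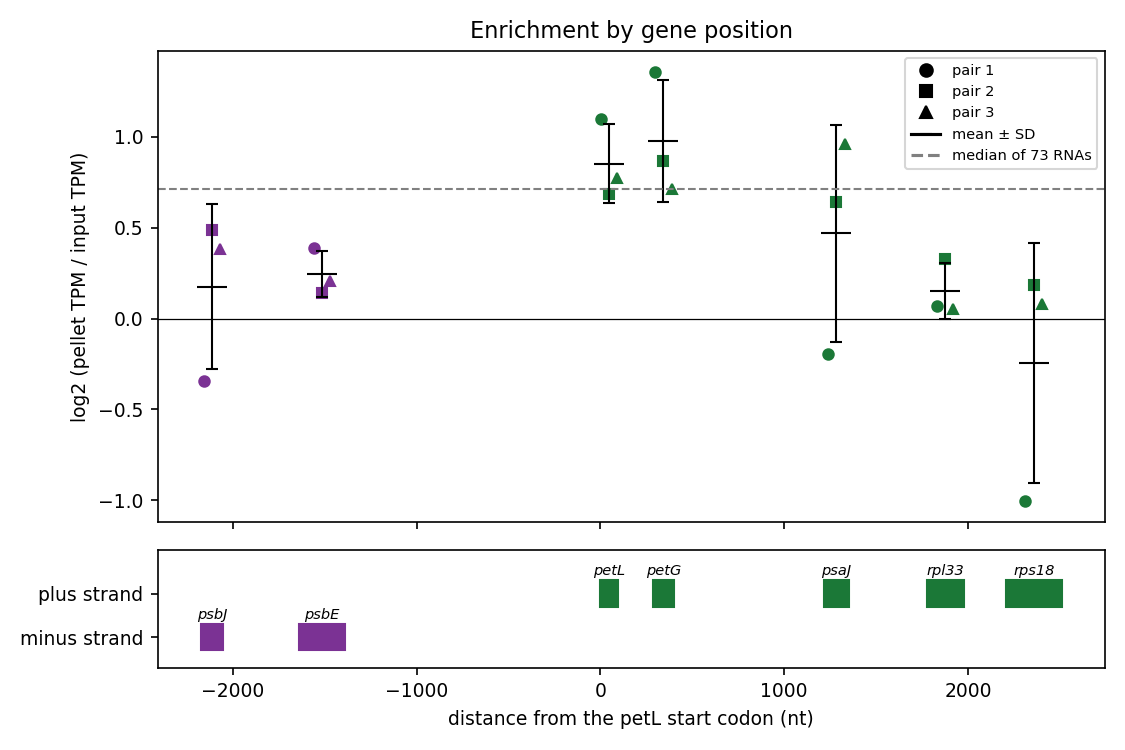
Log2 of pellet TPM over input TPM by distance from the *petL* start codon in nt, with the genes drawn to scale below (purple, minus strand; green, plus strand). Symbols are the 3 pairs, black bars the mean and SD, and the dashed line the median of 73 RNAs (0.71). *petL* and *petG* have the highest means, and pair 1 (circle) is the lowest pair for *psbJ*, *psaJ* and *rps18*.

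Input 1 stood apart from inputs 2 and 3 for most of the 7 mRNAs, and not in the same direction. Its log2 TPM minus the mean of inputs 2 and 3 was 0.83 for *psbJ*, 0.94 for *psaJ*, 0.83 for *rps18* and 0.21 for *rpl33*, against -0.36 for *psbE*, -0.66 for *petG* and -0.92 for *petL*. The standard errors of these differences from counting alone were 0.09 for *psbJ*, 0.14 for *psaJ*, 0.26 for *rps18* and 0.17 for *psbE*. They were 0.35 for *petG*, 0.57 for *petL* and 0.41 for *rpl33*. The deviations of *psbJ* and *psaJ* are therefore many times their counting error, and those of *rps18* and *psbE* more than 2 times theirs. Those of *petG*, *petL* and *rpl33* are less than 2 times theirs. Over all RNAs the median size of this deviation was 0.66, and over the 7 it was 0.83. Leaving out replicate 1 removes pellet 1 together with input 1, so the values without it do not isolate input 1. Such values were 0.17 for *psbE*, 0.19 for *rpl33*, 0.73 for *petL* and 0.79 for *petG*.

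Within the plus-strand cluster, mean enrichment over the 3 pairs was highest at the upstream genes *petL* and *petG* and lower at each gene after *petG* (0.98 for *petG*, 0.47 for *psaJ*, 0.15 for *rpl33* and -0.24 for *rps18*). This order was not the same in every pair. In pair 3 *psaJ* (0.96) was above *petL* (0.77) and *petG* (0.71), and *rps18* (0.08) was above *rpl33* (0.05). In pair 1 *rpl33* (0.07) was above *psaJ* (-0.19). Without replicate 1 *psaJ* (0.80) had the highest mean of the 5, next to *petG* (0.79) and *petL* (0.73). The mean of *petL* and *petG* exceeded that of *psaJ*, *rpl33* and *rps18* by 1.60, 0.39 and 0.38 in pairs 1, 2 and 3, most of all in pair 1.

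The profile was compared between neighbours, where the scaling of a library cancels. A step was taken as log2 TPM of the downstream gene minus that of the upstream gene in the same library. Steps in pellet and input were compared with limma over 48 pairs less than 1000 nt apart on the same strand. The pairs are neighbours among the RNAs with values. Genes without a value, such as *psbL* and *psbF* between *psbE* and *psbJ*, were passed over. None of the 5 steps between the 7 mRNAs differed between pellet and input at an adjusted p under 0.05, and over all neighbours 2.08% did, that is 1 pair, *matK* and *psbA*, which was named after its value was seen (13 pairs had an unadjusted p under 0.05). *petG* to *psaJ* had the largest change of the 5. *psaJ* was 2.26, 2.14 and 2.24 times *petG* in the pellets, against 6.61, 2.51 and 1.88 times in the inputs. The step was 1.15 ± 0.04 in the pellets and 1.66 ± 0.95 in the inputs on the log2 scale (SD, n = 3), and its change of -0.51 did not pass (adjusted p = 0.466 from limma, 95% interval -1.52 to 0.50). Without replicate 1 the change was 0.01. The enrichment of *petG* and the lack of a call for *psaJ* are thus not shown to differ.

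For *psaJ* to *rpl33* the change of the step was -0.32 ± 0.59 (SD, n = 3 pairs), from 0.26, -0.31 and -0.91 in pairs 1, 2 and 3. Without replicate 1 it was -0.61 and passed (adjusted p = 0.00493 from limma), as 22 of 48 steps did. All steps again had a common standard error there, 0.18, so that this call does not measure the spread between its remaining pairs. *psaJ* was 8.90, 9.58 and 10.1 times *rpl33* in the pellets, against 10.7, 7.71 and 5.37 times in the inputs. For *rpl33* to *rps18* the change was -0.39 ± 0.59, and -0.05 without replicate 1. For *petL* to *petG* it was 0.12 ± 0.17, with *petG* at 3.05, 2.29 and 2.17 times *petL* in the pellets and 2.56, 2.02 and 2.26 times in the inputs. For *psbE* to *psbJ* it was -0.07 ± 0.58, and 0.26 without replicate 1. *psbJ* was 3.31, 2.99 and 2.78 times *psbE* in the pellets, against 5.50, 2.35 and 2.46 times in the inputs. The downstream gene of that operon thus had the higher TPM in each of the 6 libraries. More of the *psbE* window (42.3%) than of the *psbJ* window (17.6%) overlaps other windows. How reads there were assigned is not known, so the ratio is not a plain measure of abundance.

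The clusters were set side by side by their means. The mean log2 enrichment of the 5 plus-strand mRNAs was 0.27, 0.54 and 0.52 in pairs 1, 2 and 3, and that of *psbE* and *psbJ* was 0.02, 0.31 and 0.30. The difference was 0.24, 0.23 and 0.22, with a mean of 0.23 ± 0.01 (SD, n = 3 pairs), so that the plus-strand cluster had the higher mean in every pair. The members of that cluster differed among themselves, with an SD between the 5 mRNAs of 0.97, 0.28 and 0.42 in pairs 1, 2 and 3. The small SD of the cluster difference does not measure that spread. The mean of *petL* and *petG* was 1.23, 0.78 and 0.74 in pairs 1, 2 and 3. That of *psaJ*, *rpl33* and *rps18* was -0.38, 0.39 and 0.37, so that these parts moved in opposite directions in pair 1. Taken alone, *petL* and *petG* exceeded *psbE* and *psbJ* by 0.70 ± 0.43 (SD, n = 3 pairs). *psaJ*, *rpl33* and *rps18* differed from *psbE* and *psbJ* by -0.09 ± 0.27. These are values of chosen members and carry no test.

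The calls depended on how the libraries were scaled. With every library centred on its median, the median enrichment of all RNAs was -0.12, in place of 0.71, and on that scale *petG* was at 0.15, *petL* at 0.02 and neither passed. There *rps18* was at -1.07 and was called depleted (adjusted p = 0.0397 from limma), while *psbE* (-0.58), *psbJ* (-0.65), *psaJ* and *rpl33* lay below 0 and did not pass. Rescaled without the 3 most abundant RNAs, or by the median of ratios, none of the 7 passed. *petG* and *petL* stayed above 0, *psbE*, *psbJ*, *rpl33* and *rps18* were below 0, and *psaJ* was at 0.0042 without the 3 RNAs and at -0.21 with the median of ratios. The order of the 7 mRNAs is the same under every scaling, because scaling shifts all RNAs of a library alike.

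**Figure D4:**
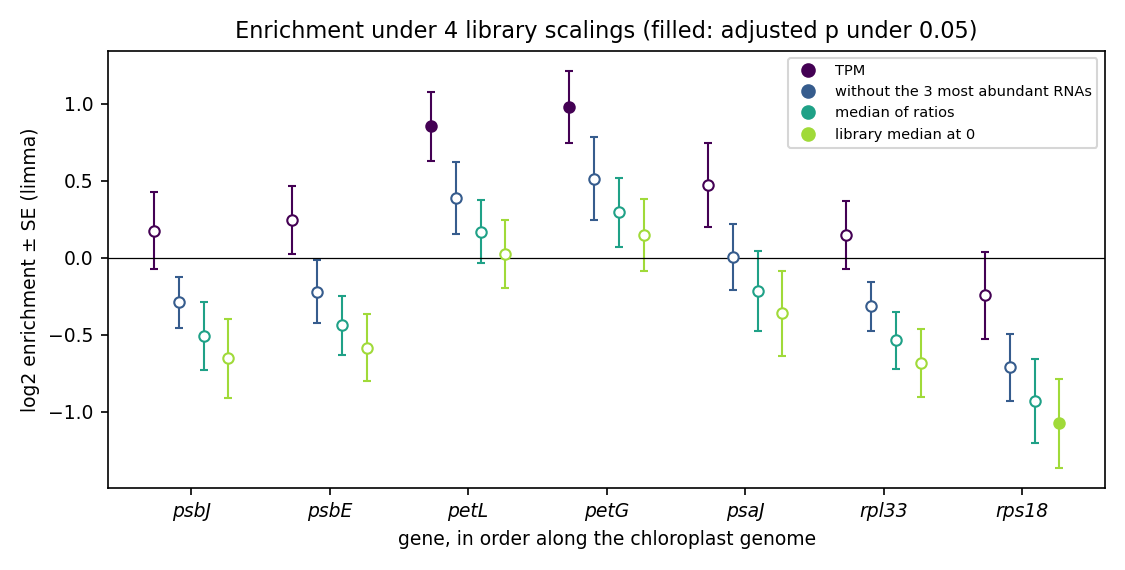
Log2 enrichment of the 7 mRNAs with the standard error from limma under 4 scalings of the libraries, in gene order. Filled symbols have an adjusted p under 0.05. On TPM *petL* and *petG* pass, with the library median at 0 *rps18* passes below 0, and with the other scalings none passes.

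The complexes to which the 7 proteins belong gave mixed counts, to be read against 49.3% of all RNAs enriched and 1.37% depleted. Of 6 mRNAs for the cytochrome *b6f* complex, 3 were enriched and 3 did not pass, from *petN* (1.40) to *petA* (0.02), with a median of 0.72. Of 13 mRNAs listed under photosystem II by their *psb* name alone, 5 were enriched and 8 did not pass. *psbM* was highest (1.43) and *psbA* lowest (-0.43), and *psbN* (1.22) was among the enriched. For photosystem I it was 1 of 5, with *psaI* at 1.31 and *psaA* at -0.43. Of 10 mRNAs for the small ribosomal subunit 5 were enriched, and *rps18* was the lowest of them, with *rps2* highest (1.12). For the large subunit it was 1 of 7, *rpl32* (0.83), with *rpl22* lowest (-0.15).

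For each of the 7, the RNA outside the group with the nearest profile was sought, as the Euclidean distance of log2 TPM centred on its own mean over the 6 libraries. *ycf4* was nearest to *petG* (distance 0.21, against a median of 1.04 to all others), with a log2 enrichment of 1.30, 0.73 and 0.62 in pairs 1, 2 and 3. *clpP* was nearest to *rpl33* (0.20, median 1.09), *psaB* to *psbE* (0.23, median 1.11) and *rpl32* to *petL* (0.33, median 1.26). For the mRNAs high in input 1 the nearest were *petA* for *psbJ* (0.30, median 1.18), *psbI* for *rps18* (0.34, median 1.53) and *atpF* for *psaJ* (0.35, median 1.17). The distance covers all 6 libraries. Like values in input 1, and like enrichment in the pairs, thus follow from how the nearest RNA was picked. *petA* had a log2 enrichment of -0.61, 0.47 and 0.22 in pairs 1, 2 and 3, and *psbI* had -0.79, 0.40 and 0.44.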

How the data were processed

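The tools and builds come from the paper's methods and from the processing notes of the submitters. Adapters were trimmed by the authors with Trim Galore (0.6.4) and reads of 40 to 60 bp kept. STAR (2.5.3) placed them on TAIR10, UMI-tools (0.5.4) removed duplicates, and featureCounts gave coding-strand reads for protein-coding chloroplast genes, with introns and 100 nt of flank. How reads in overlapping windows were assigned is not given in the sources used here. The authors removed genes with fewer than 5 reads in any library and deposited TPM for 77 entries. The deposited log2 TPM differed from log2 of TPM by at most 3.55e-15. The authors also deposited a mean log2 enrichment and a p-value per gene (one-sided, paired), and neither was used.

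Copies of *ndhB*, *rps7*, *ycf2* and *rpl2* in the inverted repeat were averaged, which gave 73 RNAs. Positions and sequences were read from RefSeq TAIR10.1, whose chloroplast sequence (154478 bp) is the one the paper names. Whole reads were recovered within 0.0001 reads for 76 of 77 entries, and for *psbC* with a window of 1586 nt in place of 1622 nt. Within each fraction, no library was a repeat of another (chi-square 12.5 to 47.1 per degree of freedom).

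limma 3.58.1 in R 4.3.3 was fitted without a pseudocount, after being checked on simulated data. The block follows the methods, which pair pellet and input of a replicate from the same mix. Deviations from the group means correlated at 0.17, 0.30 and -0.03 within replicates 1, 2 and 3. Replicates are called biological in the paper. Named are the 7 mRNAs, the nearest profile to each, and the highest and lowest mRNA of the complexes they belong to. Members and lists were chosen with earlier results of these data known. Alternatives were other scalings, a pseudocount, filters, no block, leaving out replicates and the methods' t-test. Other steps were run in Python 3.11.15 (pandas 2.3.3, matplotlib 3.10.9, scipy 1.17.1).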

Additional observations from a re-analysis of the deposited data

How the results depend on the processing

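Counting depth limits *petL*, *petG* and *rpl33*, with 7 to 19 reads in input 1, and calls with a replicate left out rest on 2 pairs. The RNAs called numbered 37 (36 enriched, 1 depleted) on TPM. They numbered 13 (4 enriched, 9 depleted) with each library centred on its median, 8 (5 and 3) without the 3 most abundant RNAs, 7 (3 and 4) by the median of ratios, and 20 (all enriched) by the methods' t-test after Benjamini-Hochberg adjustment, against 42 at an unadjusted p under 0.05. Where fewer RNAs were tested, 20 of 34 were called without window overlap, which removes *psbE*, *psbJ*, *petL* and *petG*, and 19 of 49 with at least 20 reads in every library, a filter chosen after the data were seen, which removes *petL*, *petG* and *rpl33*. The count was 62 without replicate 1, 27 without replicate 2 and 21 without replicate 3.

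Centred on the library median, the values were -0.58 for *psbE*, -0.65 for *psbJ*, 0.023 for *petL*, 0.15 for *petG*, -0.36 for *psaJ*, -0.68 for *rpl33* and -1.07 for *rps18*. Without the 3 most abundant RNAs they were -0.22 for *psbE*, -0.29 for *psbJ*, 0.39 for *petL*, 0.51 for *petG* and -0.32 for *rpl33*. By the median of ratios they were -0.44 for *psbE*, -0.51 for *psbJ*, 0.17 for *petL*, 0.29 for *petG*, -0.21 for *psaJ* and -0.53 for *rpl33*. These shifts are those of the scaling itself. By the methods' t-test *petG*, at 0.98, missed the threshold only after adjustment. With a replicate left out, the enrichment was 0.73 to 0.94 for *petL*, 0.79 to 1.11 for *petG*, 0.021 to 0.44 for *psbJ*, 0.22 to 0.80 for *psaJ* and -0.46 to 0.13 for *rps18*.

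Neighbour steps called numbered 1 with the replicate block and 8 with no replicate block, none of them between the 7 mRNAs. They numbered 3 of 22 with at least 20 reads, 22 of 48 without replicate 1, and 0 without replicate 2 or without replicate 3. The methods' t-test, one-sided for higher steps in the pellet, called 0, with 5 at an unadjusted p under 0.05. With a replicate left out, the change of step ran from -0.28 to 0.26 for *psbE* to *psbJ* and from -0.89 to 0.013 for *petG* to *psaJ*. The cluster difference was 0.26 ± 0.19 (SD, n = 3 pairs) with medians and 0.70 ± 0.43 for *petL* and *petG* alone. It was -0.086 ± 0.27 for *psaJ*, *rpl33* and *rps18* alone. Leaving out the block changed no call of the 7 mRNAs, and neither did the pseudocount or the filter at a mean of 500 TPM.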
